A study of Mus musculus with 2 samples.

Results

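Footprints of translating ribosomes were examined for 10 genes of the regulated secretory pathway in mouse brain: the granins and granin-like proteins Chga, Chgb, Scg2, Scg3, Scg5, Vgf and Pcsk1n, and the peptide-processing enzymes Pcsk2, Cpe and Pam. The genes were listed by name, and all 10 were found among the 45578 genes of the deposited table. For every gene, the transcript that gathered the most counts over both libraries stood for the gene. The samples were brains at postnatal day 5 from control animals of the Taiwanese strain of spinal muscular atrophy mice, on an FVB background, with the genotype Smn+/-; SMN2tg/0. Every sample therefore carried a single functional copy of mouse Smn together with the human SMN2 transgene, and no wild-type or affected group was analysed here. The assay was RiboLace, in which ribosomes are pulled down on puromycin-bearing beads after nuclease digestion, and protected fragments of 25 to 35 nucleotides are sequenced. There were 2 biological replicates, all of 1 group, and the labels do not say whether they came from separate litters or preparation days. Differences between the libraries thus measure only the spread between these samples, which may be technical.

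Neuropeptides and many hormones are made as longer precursors that enter dense-core vesicles, where they are cut and trimmed before release. Granins are acidic, aggregating proteins that help to form these vesicles and are themselves cut into peptides. Pcsk2, the prohormone convertase PC2, cuts precursors after pairs of basic residues, Cpe removes the exposed basic residues, and Pam amidates the C-terminus of the resulting peptide. Scg5, known as 7B2, is the chaperone of Pcsk2, and Pcsk1n encodes proSAAS, an inhibitor of the related convertase Pcsk1.

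Summed over genes, replicate 1 held 343552 counts and replicate 2 held 120282, so that 1 count was worth 2.71 CPM (counts scaled by the effective library size) in replicate 1 and 8.93 CPM in replicate 2. The 6 neuronal markers took 0.628% (95% Wilson interval 0.602 to 0.655) and 0.636% (0.593 to 0.683) of the libraries, and all 6 averaged 10 counts or more. Of these, Tubb3 was higher in replicate 2 (2875 and 3617 CPM, log2 ratio 0.33, adjusted p = 0.00365 by the exact binomial test described below), a call lost with library totals and with edgeR's preset coefficient of variation, and its part in the results was not tested. The 6 markers of the anterior pituitary, a tissue rich in granins, had 1 count in replicate 1 and none in replicate 2, where 0 counts still permit a share of 0.00249%, and 5 of the 6 were at 0 in both libraries. Markers of other cells were found in both libraries. Erythroid genes took 0.41% and 0.385% in replicates 1 and 2, and astrocyte and radial glia genes 0.215% and 0.22%. Choroid plexus genes, mostly Ttr, took 0.119% and 0.134%. The oligodendrocyte, microglial and endothelial lists each took less. Intervals here and below cover counting error only, because reads amplified by PCR without molecular identifiers are not independent molecules. In whole brain, fewer cells of a type and less RNA per cell cannot be told apart, and neither can the amount of a messenger RNA and the number of ribosomes on it, since no measure of total RNA was used here.

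The 10 genes together held 1480 counts in replicate 1, which is 0.431% of the gene total (Wilson 95% range 0.409 to 0.453), and 450 counts in replicate 2, which is 0.374% (0.341 to 0.410). Scaled by the effective library sizes, the sums were 4011 and 4018 CPM. Of the members' counts, Cpe alone took 36.7% (34.3 to 39.2) in the first library and 40.9% (36.4 to 45.5) in the second. By mean CPM, 9 of the 10 genes lay above the 95th percentile of the 20757 protein-coding genes with a coding sequence, and Pam was the exception at percentile 81.2. The median over the 10 genes was 278.4 CPM. Over the protein-coding genes it was 7.18 CPM, with 7104 of them at 0 counts in both libraries, and over the 4392 coding genes that averaged 10 counts or more it was 81.8 CPM.

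To compare the genes with each other, the CPM was divided by the length of the coding sequence of the transcript kept, which gives a density in CPM per kilobase of coding sequence. By mean density, 6 of the 10 genes lay above the 95th percentile of the protein-coding genes, fewer than by CPM. Chgb, Vgf and Pcsk2 were at percentiles 94.2, 93.7 and 92.9, and Pam at 67.5. The median density was 171.9 over the 10 genes, 5.09 over the protein-coding genes and 62.3 over those that averaged 10 counts or more. The granins spanned a wide range on this scale. Pcsk1n and Scg5, which encode short proteins that bind convertases, were the densest of the 7 at 603.8 ± 40.03 and 564.9 ± 31.2 (each SD, n = 2). Vgf, a precursor of several neuropeptides, was the least dense of the 7 at 122.3 ± 2.71 (SD, n = 2). Among the enzymes, Cpe stood above all granins and Pam below all of them.

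Pcsk1n (ENSMUSG00000039278, on the X chromosome) has a short reading frame of 777 nucleotides within a 2193-nucleotide transcript. Its counts were 165 in replicate 1 and 55 in replicate 2, which correspond to 447.1 and 491.1 CPM. Scg5 (ENSMUSG00000023236, chromosome 2), with a reading frame of 639 nucleotides, collected 128 and 42 counts, or 346.9 and 375.0 CPM. Both genes were slightly higher in replicate 2, and per coding length their intervals did not separate them. The coding density of Pcsk1n was 1.06 times that of Scg5 in replicate 1 (95% exact interval 0.836 to 1.35) and 1.08 times in replicate 2 (0.708 to 1.65).

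Chga (ENSMUSG00000021194, chromosome 12) encodes chromogranin A, the precursor of several bioactive peptides. It had 125 and 34 counts in replicates 1 and 2, or 338.7 and 303.6 CPM, with a density of 230.7 ± 17.9 (SD, n = 2). Scg5 exceeded it in density 2.23-fold in replicate 1 (95% exact interval 1.73 to 2.88) and 2.69-fold in replicate 2 (1.67 to 4.36). Per coding length, a step in the order thus separated Pcsk1n and Scg5 from the larger granins in both libraries. Per transcript length it did not separate Pcsk1n from Chga, with ratios of 1.13 (0.892 to 1.44) and 1.39 (0.889 to 2.2). Scg3 (ENSMUSG00000032181, chromosome 9), a secretogranin that binds chromogranin A and cholesterol-rich vesicle membrane, had 101 and 29 counts, or 273.7 and 259.0 CPM. Its density was 188.1 ± 7.36 (SD, n = 2), or 0.794 times that of Chga in replicate 1 (0.605 to 1.04) and 0.838 times in replicate 2 (0.493 to 1.42), so the 2 genes were not separated.

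Chgb (ENSMUSG00000027350, chromosome 2), encoding chromogranin B, had 99 and 30 counts, which came to 268.3 and 267.9 CPM. The libraries gave nearly the same value for Chgb, well within the counting error. Chgb reached the CPM of Scg3 over a longer coding sequence of 2034 nucleotides, and its density was 131.8 ± 0.138 (SD, n = 2). Chga was denser than Chgb 1.84-fold in replicate 1 (95% exact interval 1.41 to 2.43) and 1.66-fold in replicate 2, where the interval of 0.984 to 2.80 includes 1. Vgf (ENSMUSG00000037428, chromosome 5) had 85 and 25 counts, or 230.3 and 223.2 CPM, and its neighbours in density, Chgb and Pcsk2, were not separated from it in either library per coding length.

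Scg2 (ENSMUSG00000050711, chromosome 1), the precursor of secretoneurin, was the granin whose libraries lay farthest apart. Its 134 counts in replicate 1 and 24 in replicate 2 correspond to 363.1 and 214.3 CPM. By CPM it came next after Pcsk1n among the 7 granins in replicate 1, and was the lowest of them in replicate 2. Its density was 195.9 in replicate 1 (95% exact Poisson interval 164.1 to 232.0) and 115.6 in replicate 2 (74.1 to 172.0), and the mean was 155.7 ± 56.8 (SD, n = 2). The place of Scg2 in the order therefore depended on the library: without replicate 1 it dropped below Chgb and Vgf, and without replicate 2 it moved above Scg3.

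Cpe (ENSMUSG00000037852, chromosome 8), carboxypeptidase E, was the most abundant of the 10 genes in both libraries. It had 543 and 184 counts, or 1472 and 1643 CPM, and ranked 18th of the protein-coding genes by CPM in replicate 1 and 20th in replicate 2. Its coding density was 1028 in replicate 1 (95% exact Poisson interval 943.6 to 1119) and 1148 in replicate 2 (988.3 to 1327). This was 1.79 times that of Pcsk1n in replicate 1 (95% exact interval 1.5 to 2.14) and 1.82 times in replicate 2 (1.34 to 2.50).

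Pcsk2 (ENSMUSG00000027419, chromosome 2) had 80 and 23 counts, or 216.8 and 205.4 CPM, with a coding density of 110.3 ± 4.22 (SD, n = 2). By CPM it lay just below every granin in both libraries. Pam (ENSMUSG00000026335, chromosome 1), the amidating enzyme, had 20 counts (95% exact Poisson interval 12.2 to 30.9) and 4 counts (1.09 to 10.2) in the libraries, or 54.2 and 35.7 CPM. Its density of 15.3 ± 4.45 (SD, n = 2) was the lowest of the 10. Pcsk2 was denser than Pam 6.14-fold in replicate 1 (95% exact interval 3.72 to 10.6) and 8.82-fold in replicate 2 (3.01 to 35.1), or 3.47-fold and 4.99-fold per transcript length.

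**Figure D1:**
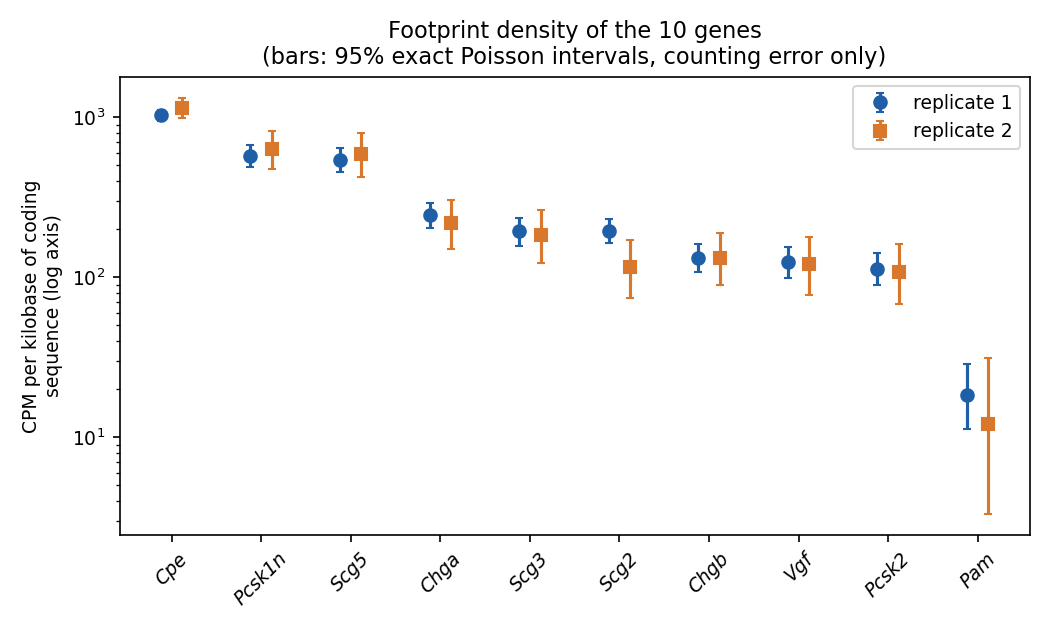
Coding density of the 10 genes in CPM per kilobase of coding sequence (log axis), ordered by the mean over the libraries, with replicate 1 as circles and replicate 2 as squares; bars are 95% exact Poisson intervals for counting error. Cpe, at 1028 and 1148, and Pam, at 18.5 and 12.2, stand apart from the others, Pcsk1n and Scg5 lie between 542.8 and 632.1, and Scg2 shows the widest gap between the libraries among the granins.

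The order by mean density was Cpe, Pcsk1n, Scg5, Chga, Scg3, Scg2, Chgb, Vgf, Pcsk2 and Pam. Of the 9 pairs of neighbours in it, 3 were separated in both libraries per coding length, namely Cpe from Pcsk1n, Scg5 from Chga, and Pcsk2 from Pam. The other 6 pairs were not, so the order within the block from Chga to Pcsk2 is not resolved step by step. Dividing by transcript length exchanged Scg5 and Pcsk1n in the order and again separated 3 pairs of neighbours. Of these pairs, only Pcsk2 and Pam were also separated neighbours per coding length. The others were Cpe from Scg5, and Vgf from Pcsk2 with ratios of 1.97 (1.43 to 2.70) and 2.01 (1.10 to 3.71). Chga was not separated from Pcsk1n, its upper neighbour on this scale. After the exchange, Cpe and Pcsk1n, and Scg5 and Chga, were no longer neighbours, so these pairs were not compared per transcript length. Transcript length lowered several densities by more than 1.5 times, from 603.8 to 213.9 for Pcsk1n, whose transcript has a 3' untranslated region of 1307 nucleotides, from 110.3 to 44.7 for Pcsk2, with one of 2474 nucleotides, from 564.9 to 298.8 for Scg5 and from 188.1 to 118.4 for Scg3. The counts are given per transcript, not per region, so which length applies was not tested.

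Ratios within a library compare each enzyme with the proteins that act beside it. These pairs were picked after the levels were known and serve as description. The chaperone Scg5 was denser than its client Pcsk2 by 4.79-fold in replicate 1 (95% exact interval 3.60 to 6.42) and 5.47-fold in replicate 2 (3.22 to 9.53). Per transcript length, a scale added for these pairs after the values were seen, the ratios were 6.26 and 7.14. Cpe, which acts on the products of the convertases, exceeded Pcsk2 by 9.08-fold (7.17 to 11.6) and 10.7-fold (6.92 to 17.3), or 15.4-fold and 18.1-fold per transcript length. Cpe also exceeded Cpd, the carboxypeptidase of the trans-Golgi network, with densities 38.3 times higher in replicate 1 (27.8 to 53.9) and 26.6 times higher in replicate 2 (16.7 to 44.5).

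The convertase Pcsk1 was close to the limit of detection. It had 3 counts in replicate 1 and 0 in replicate 2. Its inhibitor Pcsk1n had a density 160.0 times higher in replicate 1, with a wide 95% exact interval of 53.8 to 784.0, and at least 53.4-fold higher in replicate 2, taking the 3 counts that a count of 0 allows in that library. Pcsk2 was denser than Pcsk1 by 31.5-fold in replicate 1 (10.4 to 156.0) and at least 9.06-fold in replicate 2. Per transcript length these ratios were lower, at 67.1 (22.6 to 329.0) and at least 22.4 for Pcsk1n. For Pcsk2 they were 15.1 (4.99 to 74.8) and at least 4.35. Each bound of replicate 2 allows for the counting error of Pcsk1 alone, not for that of Pcsk1n or Pcsk2. Both libraries therefore showed footprints of 1 convertase of the pair, Pcsk2, well above those of the other.

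**Figure D2:**
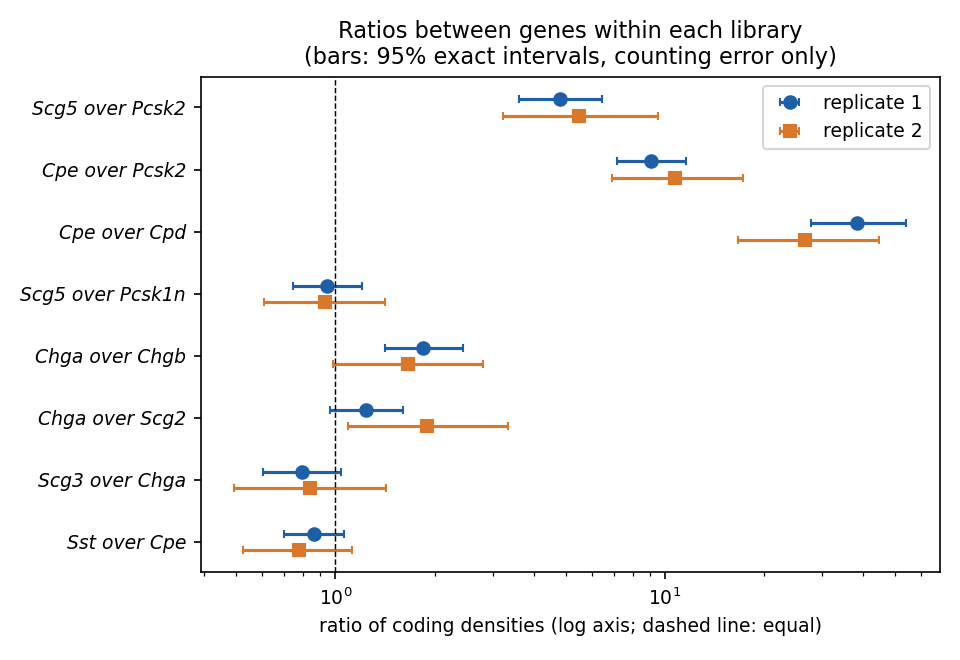
Ratios of coding densities between pairs of genes within each library (log axis), with replicate 1 as circles, replicate 2 as squares and bars for 95% exact intervals of counting error; the dashed line marks equal density. Scg5 over Pcsk2 (4.79 and 5.47), Cpe over Pcsk2 and Cpe over Cpd lie clear of the line in both libraries, while Scg5 over Pcsk1n, Scg3 over Chga and Sst over Cpe have intervals that include it on this scale.

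With 1 group, the test that the design allows is between the libraries. A 2-sided exact binomial test per gene compared the counts of replicate 2 with those of replicate 1 given the effective library sizes, over the 5436 genes that averaged 10 counts or more. It compares these libraries, not conditions. All 10 genes passed the count filter, and 0 of the 10 were called at a Benjamini-Hochberg adjusted p under 0.05, where the test called 4.14% of all genes tested and 0.956% of the 4392 protein-coding ones. At an unadjusted p under 0.05 the count was 1 of 10, against 9.60% of all genes and 5.62% of the coding genes tested, a share near the background. With a preset biological coefficient of variation of 0.2, edgeR's exact test also called 0 of the 10, and 2.41% of all genes. The median log2 ratio (replicate 2 to replicate 1, from log2(CPM + 1) values) was -0.06 over the 10 genes and -0.016 over the coding genes tested.

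The ratio of replicate 2 to replicate 1 lay between 0.590 for Scg2 and 1.12 for Cpe, and the 95% exact interval included 1 for 9 of the 10 genes. For Cpe, the most deeply covered, the interval ran from 0.939 to 1.32. For Chgb the ratio was 0.999, with an interval of 0.640 to 1.52. For Pam, the least covered with 20 and 4 counts, the interval of 0.164 to 1.97 leaves differences of several-fold undetectable at this depth. Cpe, Pcsk1n and Scg5 were above 1 and the other 7 below, but with library totals in place of TMM all 10 were below 1, a scaling under which the median over every gene tested moves from 0.0041 to -0.20 on the log2 scale.

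Scg2 was the exception, at a ratio of 0.590 with a 95% exact interval of 0.365 to 0.916. Its log2 ratio was -0.76, with an unadjusted p of 0.0143 and an adjusted p of 0.240 by the exact binomial test, so it was not called. Scaled by library totals the log2 ratio was -0.96 and the adjusted p of the exact binomial test 0.040, which passes the threshold. That test called 199 of the 5436 genes in either direction, and 0.423% of all genes lower in replicate 2. Over all alternatives the adjusted p of Scg2 ran from 0.040 to 1.

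**Figure D3:**
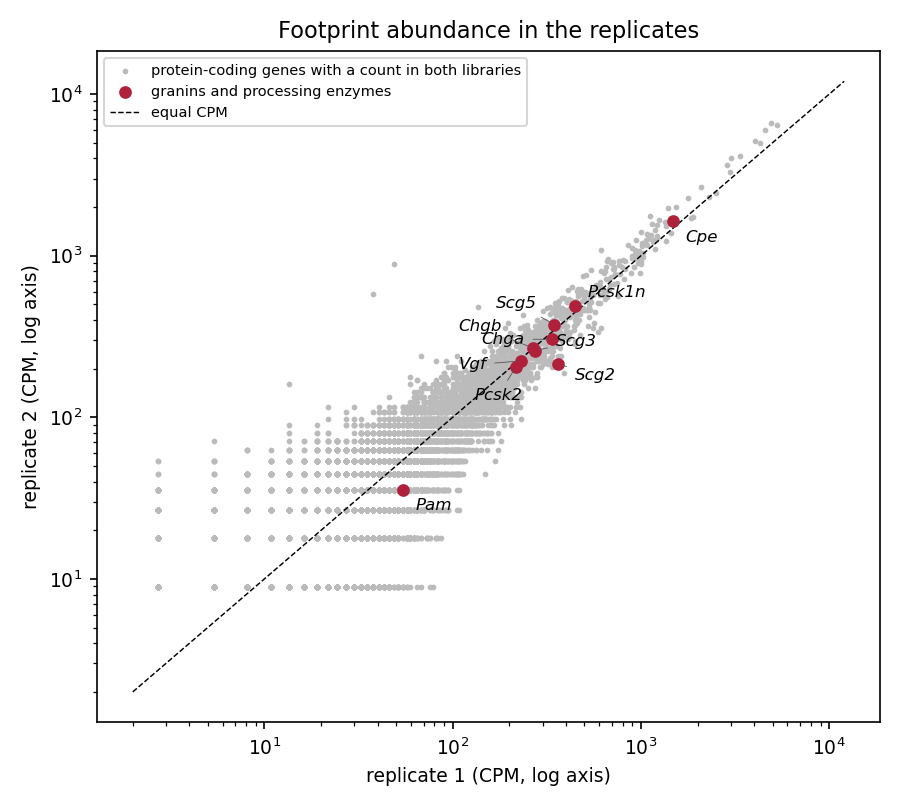
Abundance in replicate 1 (horizontal) against replicate 2 (vertical) in CPM on log axes, for protein-coding genes with a count in both libraries (grey) and the 10 granin and processing genes (red); the dashed line marks equal CPM. The labelled genes follow the line from Pam at 54.2 and 35.7 CPM to Cpe at 1472 and 1643 CPM, with Scg2, at 363.1 and 214.3 CPM, below it, and the rows of points at low CPM are single counts.

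For 5 of the 10 genes (Chga, Chgb, Cpe, Pcsk1n and Scg3) the table lists 1 transcript, so their counts do not depend on the choice of isoform. Their CPM and ratios still shift with that choice, because the library sizes are computed over all genes. Scg2 has 2 coding transcripts, of which the shorter, with 1734 coding nucleotides, had 121 and 25 counts against 134 and 24 for the one kept, with 1854. Both transcripts thus showed the low value in replicate 2. Fragments that they share appear to be counted for each, so the second transcript is not an independent measure. Vgf has 3 transcripts with the same coding length of 1854 nucleotides that differ in their untranslated regions. They had 73, 78 and 85 counts in replicate 1 and 29, 26 and 25 in replicate 2, so the transcript with the most counts in one library had the fewest in the other. On the transcript Vgf-001 the log2 ratio of Vgf was 0.39, with an adjusted p of 0.889 by the exact binomial test, against -0.05 on Vgf-201 with an adjusted p of 1.

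Pam has 15 transcripts, 6 of them with a coding sequence. The 3 long coding transcripts had 20, 19 and 20 counts in replicate 1 and 3, 4 and 4 in replicate 2. They have coding lengths of 2940, 2622 and 2937 nucleotides, so the forms with and without the additional coding stretch could not be told apart at this depth. The 9 transcripts of Pam without a coding sequence had 0 to 4 counts each in replicate 1 and at most 3 in replicate 2. Scg5-002, annotated as a processed transcript of 593 nucleotides, had 52 and 15 counts against 128 and 42 for the coding transcript. Pcsk2-001, of the same class, had 19 and 4 against 80 and 23. Fragments shared between transcripts of a gene appear to be counted for each, so these are not separate molecules.

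Other genes of the pathway were taken by role from lists of names. Of 13 other processing enzymes, 2 passed the count filter, and the list's median was 18.4 CPM. The highest were Ctsl (cathepsin L, also a lysosomal protease) at 157.2 and 276.8 CPM in replicates 1 and 2, Cpd at 111.1 and 178.6 CPM, and Qpct, which forms N-terminal pyroglutamate. Pcsk2, Cpe and Pam together had 643 and 211 counts in the libraries, or 3.99 times (95% exact interval 3.36 to 4.78) and 2.71 times (2.08 to 3.55) the counts of the 13. This excess came from Cpe, which had 543 and 184 of these counts. Pcsk2 had 80 and 23 and Pam 20 and 4, against 161 and 78 for the 13 enzymes together.

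Of 37 neuropeptide precursors, 6 passed the filter and 11 had no count in either library, among them Pomc, and the list's median was 4.07 CPM. Somatostatin (Sst) was the highest at 311.6 and 312.5 CPM and made up 35.9% (Wilson 95% range 30.9 to 41.3) and 35.7% (26.9 to 45.6) of the list's counts in the libraries. Cck, for cholecystokinin, stood at 116.5 and 107.2 CPM and Penk, for the enkephalins, at 84.0 and 89.3 CPM. The reading frame of Sst is short, at 351 nucleotides, and its density of 887.9 and 890.4 was not separated from that of Cpe per coding length, with ratios of 0.863 (95% exact interval 0.700 to 1.06) and 0.776 (0.524 to 1.12). Per transcript length Sst was below Cpe in both libraries, at 0.738 (0.598 to 0.904) and 0.663 (0.448 to 0.955). Sst exceeded Chga 3.65-fold (2.81 to 4.74) and 4.08-fold (2.47 to 6.75) per coding length. The ratios were 2.89 (2.22 to 3.75) and 3.23 (1.96 to 5.34) per transcript length. In summed counts, the 7 granins had 2.62 times those of the 37 precursors in replicate 1 (95% exact interval 2.30 to 2.98) and 2.44 times in replicate 2 (1.92 to 3.12). These sums are not scaled by coding length, which ran from 639 to 2034 nucleotides for the granins. It was 351, 348 and 807 nucleotides for Sst, Cck and Penk. Per coding length, the densest precursors, Sst, Cck and Npy, had mean densities of 889.2, 321.4 and 263.8. The densest granins, Pcsk1n, Scg5 and Chga, had 603.8, 564.9 and 230.7. The median density was 188.1 over the granins and 11.8 over the precursors. The excess is therefore one of counts alone, and whether it holds for densities summed over each list was not tested.

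Of 30 genes of dense-core vesicle formation and release, 16 passed the filter, and the list's median was 38.5 CPM. The highest were the small GTPase Rab3a at 401.1 and 339.3 CPM, the synaptotagmin Syt4 at 295.4 and 357.2 CPM, and Rab2a at 271.0 and 303.6 CPM, all of which have roles beyond these vesicles. Their CPM lay within the range of the granins. The exact binomial test called 0 of the 2 enzymes, 0 of the 6 precursors and 0 of the 16 vesicle genes tested, and edgeR's exact test with the preset coefficient of variation called 0 of each as well. At an unadjusted p under 0.05 the counts of the exact binomial test were 1, 0 and 0, the single gene being Ctsl (unadjusted p = 0.0164, adjusted p = 0.264).

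**Figure D4:**
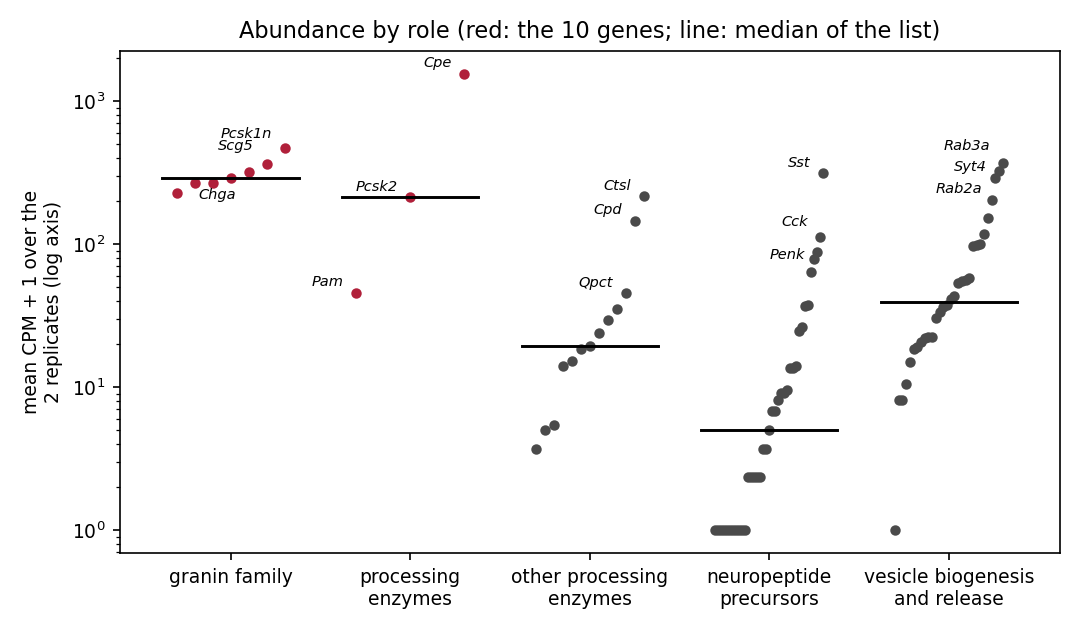
Mean abundance over both replicates by role, as CPM + 1 on a log axis, with 1 point per gene, the 10 granin and processing genes in red and the median of each list as a line; the 3 highest genes of each list are labelled. The granins lie in a narrow band from 226.8 to 469.1 CPM, whereas the precursors run from 0 to 312.1 CPM for Sst.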

How the data were processed

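RiboLace footprints of 2 control brain samples at postnatal day 5 were analysed. The authors deposited 1 table of whole-number counts per transcript and replicate, not normalised, with the lengths of each transcript and of its coding and untranslated parts. Per the submitters' processing notes, GRCm38.p4, Trimmomatic 0.36, Bowtie2 2.2.6 and SAMtools were used. The counting tool, annotation release, rRNA filter and use of strand are not given in the sources used here. Isoforms carry overlapping counts, so fragments shared by transcripts appear several times, which inflates sums over isoforms.

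Each gene kept the transcript with the highest count over both replicates (the longer in a tie). CPM used TMM effective library sizes from edgeR 4.0.16 (factors 1.07 and 0.931) computed on genes averaging 10 counts or more. For each of those 5436 genes the replicates were compared by an exact binomial test (2-sided), and p-values were adjusted over all of them by the Benjamini-Hochberg method. Ratios between genes carry 95% exact conditional binomial intervals, counts exact Poisson intervals and shares Wilson intervals (scipy 1.17.1). The test was tried on simulated data with counting noise alone. That is the noise it assumes, so the trial does not cover spread between samples or PCR. The members and lists were chosen with earlier results of these data known. From each list the 3 genes with the highest mean CPM and any called gene were to be named. Pcsk1, Pomc, Sst as a partner of Cpe and Chga, and the gene pairs were singled out after their values were seen, and the pairs' ratios per transcript length were added after seeing the data. Symbols are the table's, and all 10 matched the name table by gene identifier. Chromosomes come from RefSeq (GRCm38.p6). Planned protein features were not analysed here.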

Additional observations from a re-analysis of the deposited data

How the results depend on the processing

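No paired analysis was possible because the design has a single group. Depth limits the test most for Pam, with 4 counts in replicate 2. Causes of the changes below were not tested unless the construction shows them. The count of genes called between the libraries went from 0 to 1 (Scg2, log2 ratio -0.96) with library totals and was 0 under the other 6 alternatives.

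Directions of ratios near 0 changed, each without a call. With library totals, Cpe became -0.05, Pcsk1n -0.07 and Scg5 -0.09. With at least 1 count in each library, Cpe became -0.02, Pcsk1n -0.05 and Scg5 -0.07. With isoforms summed, Chgb became 0.06, Vgf 0.22 and Pam 0.0052. On the longest coding isoform, Chgb became 0.0015 and Vgf 0.39. Among coding genes alone, Chgb became 0.02. With a preset coefficient of variation of 0.2 or a mean of at least 50 counts (which left Pam untested) the directions were those reported.

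The summed level of 4015 CPM became 4025 with library totals, 4140 on the longest coding isoform and 2583 with isoforms summed, where repeated fragments enlarge the total, and ran from 4011 to 4018 when either replicate was left out. The median coding density of 171.9 became 116.6 per transcript length, which is longer by construction. The members' share of 0.402% became 0.258% with isoforms summed and 0.521% of coding counts alone, a smaller total, and ran from 0.374% to 0.431% without either replicate. The number of separated neighbours, 3, was also 3 under transcript length, where 1 pair, Pcsk2 and Pam, was shared with the main order, and 3 on the longest coding isoform. It ran from 3 to 4 without either replicate.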
